A study of Mus musculus with 11 samples.

Results

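The genes of oxidative phosphorylation were followed in macrophages (macs) from 5 tissues of WT and Zeb2KO mice, the latter made to delete the transcription factor ZEB2 in macs. They were chosen by symbol: names starting with Ndufa, Ndufb, Ndufc, Ndufs, Ndufv, Uqcr, Cox4i, Cox5, Cox6, Cox7, Cox8, Atp5 or mt-, together with Sdha, Sdhb, Sdhc and Sdhd, and without pseudogenes ending in -ps and the Ndufaf assembly factors. This gave 98 of the 27998 genes counted, of which 85 are nuclear and 13 lie on the mitochondrial genome. Complexes were assigned by symbol, here and in all later counts by complex. By this rule the nuclear members comprise 38 genes of complex I, 4 of complex II, 8 of complex III, 18 of complex IV and 17 of complex V. The mitochondrial ones comprise 7 genes of complex I, 1 of complex III, 3 of complex IV and 2 of complex V. A few symbols caught by the rule name proteins that regulate or resemble a subunit rather than form the core enzyme.

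Oxidative phosphorylation makes ATP at the inner mitochondrial membrane. Complexes I and II pass electrons from NADH and succinate to ubiquinone, complex III hands them to cytochrome c, complex IV (cytochrome c oxidase) gives them to oxygen, and complex V (ATP synthase) uses the proton gradient to make ATP. Most subunits are encoded in the nucleus, made in the cytosol and imported, whereas a small catalytic set is transcribed and translated inside the mitochondrion, so the complexes other than complex II need products of both genomes. In macs the use of this pathway is known to differ with activation and with the tissue of residence.

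Cells were profiled by droplet single-cell RNA sequencing, which counts unique molecular identifiers (UMIs) at the 3′ end of polyadenylated transcripts. The tissues were brain (microglia), colon (colonic macs, CMs), liver (Kupffer cells, KCs), lung (alveolar macs, AMs) and spleen (splenic macs, SMs), each represented by 1 WT library (Zeb2fl/fl, no CRE) and 1 Zeb2KO library (labelled Fcgr1-crexZeb2fl/fl in all 5 tissues), and liver by another WT library from Nr1h3fl/fl mice without CRE. Fcgr1 encodes CD64, a surface receptor of macs. The study's results, figure legends and methods instead name Clec4f-cre, active in KCs, for liver and Itgax-cre, active in CD11c+ cells such as AMs, for lung. Labels and study thus disagree for liver and lung, which was not settled here. By the study, the CRE line was thus the same for brain, colon and spleen, and differed for liver and for lung. Both WT genotypes carry loxP-flanked alleles, and the controls of the Zeb2KO mice were littermates. Mice were 6 to 8 weeks old unless another age was named, and the number of mice per library is not given in the sources used here. The study describes cells that escaped full deletion in every tissue but brain, so a Zeb2KO library is a mixture and its ratio to WT is that of the mixture. All gates used CD64 and F4/80. To these the KC gate added Clec4F, the AM gate CD11c with SiglecF, and the microglial gate an intermediate CD45 level, while cells with Ly6C, Ly6G or SiglecF were gated out for CMs and SMs.

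Levels are given as CPM, the UMI count of a gene scaled to the same total in every library. After filtering, 2830 to 6988 cells were kept per library, with a median of 2219 to 9232.5 UMIs per cell, lowest in SMs and highest in CMs. Libraries shared 14 to 76 cell barcodes pairwise, at most 1.45% of the smaller library. The cells carried their tissue's markers, except that Cd209a was below 20 CPM in both CM libraries and Cd209f was at 0 in WT and 4.13 CPM in Zeb2KO SMs. Zeb2 itself was counted at 475, 375, 387, 312 and 732 CPM in WT microglia, CMs, KCs, AMs and SMs and at 1747, 477, 779, 480 and 888 CPM in the Zeb2KO libraries. These counts check nothing, because the floxed allele still gives an mRNA with a 3′ end. In clusters held mainly by Zeb2KO cells lay 94.4% of Zeb2KO microglia, 23.0% of CMs, 74.2% of KCs, 90.4% of AMs and 77.5% of SMs. With 1 library per tissue and genotype, a difference between WT and Zeb2KO within a tissue has no replicate check, and intervals on it cover counting error only.

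The first question was how the 2 sets of genes are divided among tissues. The nuclear members made up 1.23% of UMIs in WT and 1.15% in Zeb2KO microglia, 2.18% and 2.40% in CMs, 2.52% and 2.25% in KCs, 2.75% and 2.43% in AMs, and 1.58% and 1.83% in SMs. The 13 mitochondrial genes made up 1.08% and 1.70% in microglia, 2.67% and 3.07% in CMs, 2.93% and 3.03% in KCs, 3.50% and 4.11% in AMs, and 8.22% and 6.93% in SMs. Microglia were thus lowest in both sets, and SMs combined the next lowest nuclear share with the highest mitochondrial share. The Nr1h3fl/fl WT KCs held 2.57% nuclear and 4.78% mitochondrial UMIs. Mitochondrial UMIs were 0.879 and 1.48 times the nuclear ones in WT and Zeb2KO microglia, 1.23 and 1.28 times in CMs, 1.16 and 1.35 times in KCs, 1.27 and 1.69 times in AMs, and 5.22 and 3.80 times in SMs. A share is relative, so it also moves when other RNA is gained or lost.

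**Figure D1:**
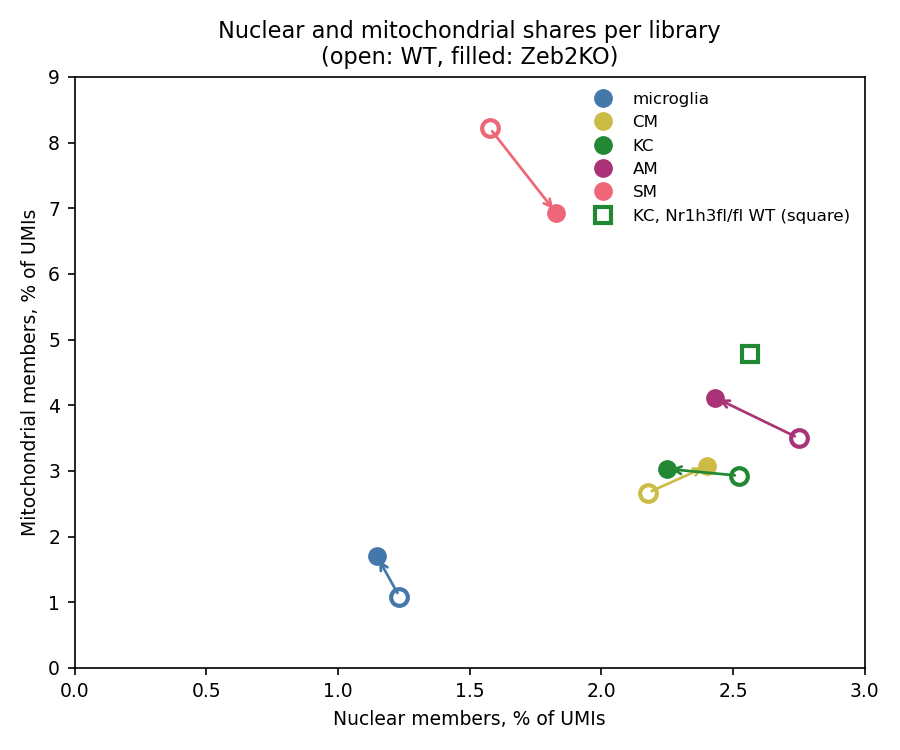
Each symbol is 1 library, placed by the summed UMIs of the nuclear members (x axis, % of all UMIs) and of the 13 mitochondrial genes (y axis, % of all UMIs), with an arrow from WT (open) to Zeb2KO (filled) in each tissue and a square for the Nr1h3fl/fl WT KCs. SMs stand alone at 8.22% and 6.93% mitochondrial UMIs, and the Nr1h3fl/fl square lies at 4.78% above both other KC libraries.

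Within single cells the same order held. The median cell had 1.22% nuclear and 1.01% mitochondrial UMIs in WT microglia and 1.44% nuclear and 8.35% mitochondrial UMIs in WT SMs. The middle 90% of WT SM cells ranged from 4.28% to 14.5% mitochondrial UMIs, and that of WT microglia from 0.35% to 1.96%, so these ranges did not overlap. SMs were also the shallowest cells, with medians of 2219 and 2733 UMIs in WT and Zeb2KO, and the filter on mitochondrial percent, set from each library's own cells, kept SM cells of up to 17.8% but microglia of only up to 2.55% in WT. Summed markers of red blood cell precursors reached 2124 and 2673 CPM in the SM libraries against at most 610 CPM elsewhere. The part of depth, filter and these transcripts in the SM shares was not tested.

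Differences among tissues were tested gene by gene in edgeR, with the WT and Zeb2KO libraries of a tissue as its 2 libraries. Of the members, 81 nuclear and all 13 mitochondrial genes passed the filter on low counts. Cox7b2 and Cox8c had no UMI in any library, Cox8b reached 0.17 CPM and Ndufa4l2 0.79 CPM at most, and these 4 were not tested. The level differed among tissues for 77 of 81 nuclear and 13 of 13 mitochondrial genes, against 82% of all 12136 genes tested. The likelihood ratio test of DESeq2 gave 78 and 13, against 83.6% of all genes. The nuclear genes that missed the threshold were Ndufc2 (adjusted p = 0.0707), Sdha, the catalytic subunit of complex II (0.182), Atp5s (0.0964) and Atp5a1, the alpha subunit of ATP synthase (0.180), all in edgeR. Instrument (NextSeq500 for KCs and AMs, HiSeq for the others), sort and dissociation went with the tissue and cannot be told apart from it.

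Microglia had the lowest nuclear levels. Against the mean of the other 4 tissues, 59 of 81 nuclear genes were lower and 5 higher in edgeR, where 27.8% of all genes were lower and 28.8% higher, and the median log2 difference over the nuclear members was -0.89. The 5 higher genes were Cox6a2 (log2 difference 4.41), Atp5sl (1.06), Atp5s (0.63), Uqcrc1, a core protein of complex III (0.55), and Ndufa9 (0.54). All 13 mitochondrial genes were lower in microglia, from -1.10 for mt-Cytb to -2.74 for mt-Atp8, with a median of -1.74. Low nuclear and low mitochondrial levels therefore coincided in this tissue.

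SMs showed opposite directions for the genes of the 2 genomes. Of the nuclear genes 49 were lower and 3 higher than in the other tissues, with a median log2 difference of -0.63, where 24.6% of all genes were lower and 28% higher. The 3 higher genes were Cox4i2 (2.85), Atp5g3 (0.47) and Sdhc, a membrane anchor of complex II (0.40). The 13 mitochondrial genes were all higher, with a median of 1.58, from 0.82 ± 0.17 (SE) for mt-Nd1 to 3.78 ± 0.32 for mt-Atp8. Next to mt-Atp8 at the top were mt-Nd6 (3.64), mt-Nd4l (3.37) and mt-Nd3 (2.13), all small subunits of complex I.

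CMs, KCs and AMs lay on the high side for the nuclear genes. In CMs 44 were higher and 0 lower (all genes: 19.6% higher, 12.1% lower), in KCs 31 and 0 (17.6% and 12%), and in AMs 45 and 1 (25.7% and 23.1%), the last being Atp5sl. The median log2 differences were 0.54, 0.41 and 0.48. Mitochondrial genes moved less: none was called in CMs, 4 were lower in KCs (mt-Nd4l, mt-Atp8, mt-Nd5 and mt-Nd3) and 2 were higher in AMs (mt-Nd4l and mt-Nd3).

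**Figure D2:**
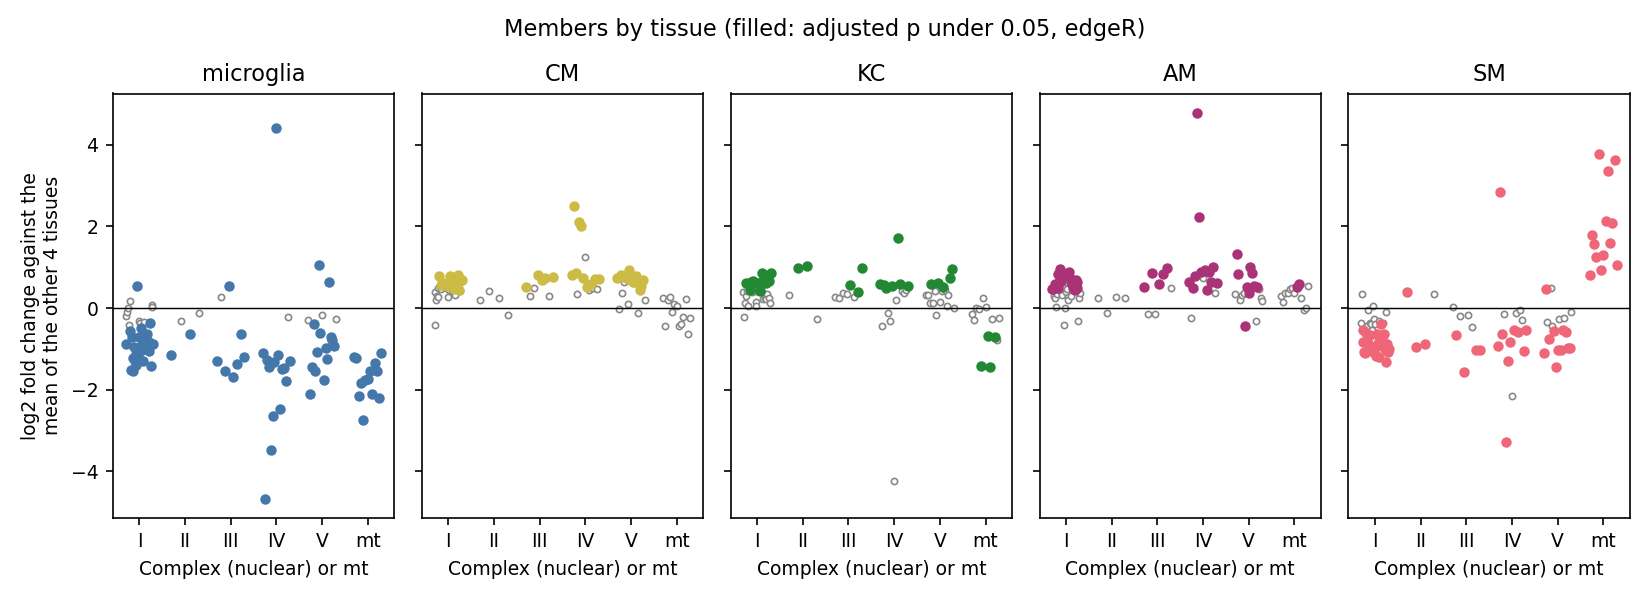
Each point is 1 member, grouped by complex for the nuclear genes and as mt for the mitochondrial ones, with its log2 fold change in 1 tissue against the mean of the other 4 on the y axis. Filled points had an adjusted p under 0.05 in edgeR. In microglia points of all 5 complexes and mt lie mostly below 0, and in SMs nuclear points lie mostly below and all 13 mt points above 0.

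The nuclear genes of complexes I, III, IV and V shared these directions. In microglia 26 of 37 complex I genes, 2 of 4 of complex II, 6 of 8 of complex III, 13 of 15 of complex IV and 12 of 17 of complex V were lower, with the lowest median, -1.45, for complex IV. In SMs 24 of 37, 2 of 4, 4 of 8, 9 of 15 and 10 of 17 were lower, and of complex II Sdhc was higher. Of all genes 27.8% were lower in microglia and 24.6% in SMs. Complex II, which has no mitochondrially encoded subunit, had 2 of 4 genes higher in KCs, Sdhb and Sdhd, where 17.6% of all genes were higher. Within complex I the 7 nuclear genes of the catalytic core differed in microglia from the 30 others assigned by symbol, Ndufa4 among them, here called accessory. Of the core genes 1 was lower and 0 higher (median -0.01), while 25 accessory genes were lower and 1 higher (median -0.88). In SMs 6 of 7 core and 18 of 30 accessory genes were lower. Core genes have longer transcripts, with a median of 1623 bases against 868 for the accessory genes. The nuclear members as a whole are short, with a median longest transcript of 863 bases against 2289 for all genes, and no test of the difference between core and accessory genes was made.

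The nuclear gene with the widest range over the WT libraries, apart from the restricted isoforms, was Cox5a, a nuclear-encoded subunit outside the catalytic core of complex IV, on chromosome 9 (57521274 to 57532426, plus strand, GRCm38/mm10). Its level in microglia, CMs, KCs, AMs and SMs was 150, 536, 1452, 744 and 555 CPM in WT and 153, 686, 1273, 618 and 638 CPM in Zeb2KO, and 1456 CPM in Nr1h3fl/fl KCs. All 3 KC libraries lay above, and both microglia libraries below, every other library. Against the other 4 tissues it was higher in KCs by 1.73 ± 0.13 on the log2 scale (SE; adjusted p = 0.00066, edgeR) and lower in microglia, with a difference of -2.47 ± 0.18 (adjusted p = 0.000203, edgeR). Atp5l (also called subunit g), Cox6c and Uqcr11, small accessory subunits of complexes V, IV and III, had their highest WT level in AMs, at 1250.3, 910 and 638 CPM, and their lowest in microglia, at 265, 212 and 151 CPM.

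ATP synthase subunit c, the proton-carrying ring, is encoded by 3 nuclear genes whose mature proteins are the same. Atp5g3 had 80.3, 174, 277, 554 and 313 CPM in WT microglia, CMs, KCs, AMs and SMs. In the Zeb2KO libraries it had 72.5, 213, 238, 371 and 366 CPM. It was higher in AMs (log2 difference 1.33 ± 0.14, SE) and SMs than in the other tissues, whereas Atp5g1 (-1.02 ± 0.15) and Atp5g2 (-0.58 ± 0.11) were lower in SMs. The longest identical stretch between annotated transcripts was 21 bases for Atp5g1 and Atp5g2 and 12 bases for either of them and Atp5g3.

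Complex IV has subunits with an ubiquitous and a tissue-restricted form, and 8 restricted genes were followed, counting Ndufa4l2, which its symbol places in complex I. Cox6b2, known as a testis form of subunit VIb, had 1.78, 23.9, 7.11, 121 and 1.71 CPM in WT microglia, CMs, KCs, AMs and SMs. In the Zeb2KO libraries it had 0.473, 13.5, 4.64, 64.5 and 0.826 CPM, and 7.91 CPM in Nr1h3fl/fl KCs. AMs and CMs were the high tissues: the log2 difference from the other 4 was 4.79 ± 0.16 in AMs and 2.11 ± 0.17 in CMs (SE; adjusted p = 2.18e-05 and 0.00082, edgeR). Its ubiquitous counterpart Cox6b1 had 916 CPM in WT AMs and 280 CPM in WT microglia.

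Cox6a2, the heart and skeletal muscle form of subunit VIa, had its highest level in Zeb2KO microglia. It had 13.3, 3.54, 0.123, 0.255 and 1.22 CPM in WT microglia, CMs, KCs, AMs and SMs and 99.0, 5.75, 0.613, 15.6 and 1.14 CPM in the Zeb2KO libraries. The WT KC and AM values rest on 3 and 7 UMIs. In microglia it was higher than in the other tissues by 4.41 ± 0.78 on the log2 scale (SE; adjusted p = 0.00372, edgeR).

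Cox4i2, the form of subunit IV associated with hypoxia and with lung, was highest in CMs and SMs, with 3.17 and 11.7 CPM in WT and 9.39 and 3.61 CPM in Zeb2KO, so that the order of these tissues was exchanged between genotypes. It was at 2.49 CPM or less in all other libraries. Cox7a1, the heart and muscle form of subunit VIIa, was highest in AMs (18.7 CPM in WT, 5.97 in Zeb2KO) and CMs (9.43 and 8.39 CPM). The other 4 restricted genes are the untested ones named above.

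**Figure D3:**
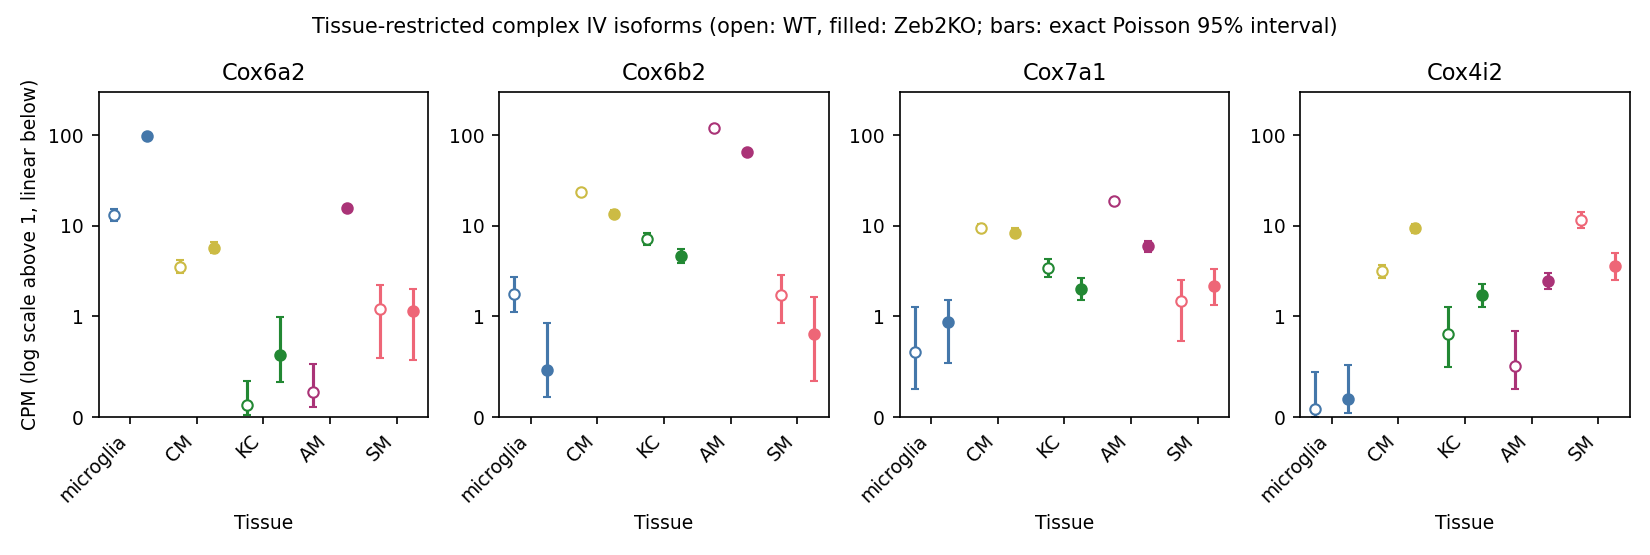
Levels of Cox6a2, Cox6b2, Cox7a1 and Cox4i2 (y axis, CPM, log scale above 1 and linear below) in the WT (open) and Zeb2KO (filled) library of each tissue, with exact Poisson 95% intervals that cover counting error only. Cox6a2 is high in microglia and higher in the Zeb2KO library, and Cox6b2 is high in AMs and lower in each Zeb2KO library.

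Promoter windows from RefSeq (GRCm38.p6; from 250 bases before to 50 bases after the start) were found for 67 of the 85 nuclear members, with 72 windows in all. The 10-base motif GCGCNTGCGC, the type bound by NRF1, a regulator of respiratory genes, was in 25% of these windows on either strand, against 4.60% of all 32851 promoter windows. CCGGAAG, of the type bound by ETS factors such as GABPA, was in 22.2% against 8.86%. The E-box CACCTG, of the type bound by ZEB proteins, was in 20.8% against 20.2%. The motifs do not overlap in letters, 17, 16 and 14 member genes held them, and a match is a description of the sequence only. The last 120 bases of these windows that lie upstream of both the RefSeq and the GENCODE start are shown for Cox6b1 and Cox6b2, the ubiquitous and the AM- and CM-enriched form of the same subunit, for Cox6a1, the ubiquitous counterpart of Cox6a2, and for Uqcr11, which is named again below. A motif is in capitals.
Cox6b1, chr7:30626152-30626271, minus strand: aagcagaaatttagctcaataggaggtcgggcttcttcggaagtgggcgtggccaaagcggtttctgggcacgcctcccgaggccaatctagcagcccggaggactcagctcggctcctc
Cox6b2, chr7:4753095-4753214, minus strand: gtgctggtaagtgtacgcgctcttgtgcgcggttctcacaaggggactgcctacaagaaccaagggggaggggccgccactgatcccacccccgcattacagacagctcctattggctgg
Cox6a1, chr5:115348982-115349101, minus strand: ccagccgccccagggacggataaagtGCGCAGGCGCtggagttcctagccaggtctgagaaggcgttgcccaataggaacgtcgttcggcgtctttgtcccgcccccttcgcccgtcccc
Uqcr11, chr10:80406831-80406950, minus strand: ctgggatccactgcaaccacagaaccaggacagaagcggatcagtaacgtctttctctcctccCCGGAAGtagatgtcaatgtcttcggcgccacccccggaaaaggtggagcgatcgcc
In these stretches Uqcr11 held the ETS type and Cox6a1 the NRF1 type, read on the strand opposite to the one printed, while Cox6b1 and Cox6b2 held neither. The whole windows of Cox6b1 and Cox6a1 also held the ETS type, and that of Cox6b1 the ZEB type, outside the stretch printed.

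The next question was whether the members differed between Zeb2KO and WT cells. Summed over the nuclear members, the log2 ratio of Zeb2KO to WT was -0.10 in microglia (95% counting interval -0.11 to -0.09), 0.14 in CMs (0.139 to 0.147), -0.17 in KCs (-0.172 to -0.161), -0.18 in AMs (-0.181 to -0.172) and 0.21 in SMs (0.203 to 0.224). The sums were thus lower in 3 tissues and higher in CMs and SMs. Scaled with TMM factors (trimmed mean of M values), the AM sum turned to 0.087 and the microglial sum shrank to -0.026, and with cells thinned to 1000 UMIs the AM sum was -0.090.

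Gene by gene, log2 ratios of CPM plus 1 were compared among members whose higher library had 20 CPM or more. In microglia 1 nuclear gene was higher by at least 0.5 and 2 lower, of 77, where 9.78% of all genes were higher and 12% lower by as much. In CMs 0 of 76 were higher and 1 lower (4.22% and 2.42% of all genes), in KCs 0 of 75 and 4 (8.94% and 5.68%), in AMs 0 of 76 and 13 (9.19% and 33.8%), and in SMs 6 of 75 and 0 (7.45% and 5.05%). The nuclear medians were -0.14, 0.12, -0.16, -0.05 and 0.23 in microglia, CMs, KCs, AMs and SMs, and those of all genes -0.09, 0.05, 0.02, -0.31 and -0.02. By sign alone the nuclear members of AMs had 31 ratios above 0 and 45 below.

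In AMs the scaling sets the sign. TMM factors move AM ratios up by 0.26 on the log2 scale, to a median of -0.05 for all genes and 0.21 for the nuclear members, of which 54 were then higher and 22 lower. By at least 0.5, 11 nuclear members were then higher and 3 lower, where 924 and 941 of 5811 genes were. S100a8 and S100a9, listed here as neutrophil markers, took 2.35% of UMIs in Zeb2KO AMs and 0.00229% in WT AMs. The other listed neutrophil markers summed to 353 CPM in Zeb2KO and 14.9 CPM in WT AMs, and no AM cluster was left out as neutrophils. Scaled to the UMIs of all genes but S100a8 and S100a9, the nuclear AM sum was -0.14, a choice made after the data were seen. After the median of genes of like transcript length was taken off, the nuclear medians were -0.08, 0.05, -0.13, 0.02 and 0.07 in microglia, CMs, KCs, AMs and SMs. With the median of all genes taken off instead, they were -0.05, 0.07, -0.18, 0.25 and 0.25. The values of AMs and SMs thus differed most between these corrections, and those after length matching were the smaller.

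The members with the lowest and highest ratios differed from tissue to tissue. In microglia they were Ndufa9 (-0.66), Sdhb, the iron-sulphur subunit of complex II (-0.65) and Sdhc (-0.46) on the low side, and Uqcrh (0.14), Sdha (0.29) and Cox6a2 (2.81) on the high side. In CMs they were Cox6b2 (-0.78), Sdhb (-0.12) and Cox7a2l, a factor of respiratory supercomplexes (-0.06), and Cox7a2 (0.33), Cox6a1 (0.34) and Cox5a (0.35). In KCs Ndufa1 (-0.60), Ndufa3 (-0.57) and Atp5k (-0.56) stood at the low end and Uqcrc2 (0.20), Ndufb11 (0.27) and Cox7a2l (0.42) at the high end. Small accessory subunits of complexes I and V thus led the low side in KCs.

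In AMs Atp5k (-1.03), Cox6b2 (-0.90) and Ndufa3 (-0.82) were lowest and Ndufa12, Ndufs7 and Ndufb11 (each 0.35) highest. In SMs Cox7a2l (-0.46), Atp5a1 (-0.31) and Sdha (-0.27) were lowest and Ndufa4 (0.56), Ndufa1 (0.63) and Uqcrb (0.64) highest. Several of these genes changed sides between tissues: Ndufa1 was low in KCs and high in SMs, and Cox7a2l the reverse.

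Few members differed by a log2 ratio of at least 1. In microglia there were 2, Cox6a2 and mt-Atp8 (8.34% of all genes), in AMs 2, Atp5k and mt-Atp8 (11.7%), and none in CMs (1.58%), KCs (4.66%) or SMs (3.17%). Atp5k, the e subunit of ATP synthase (371-base transcript on chromosome 5, 108433244 to 108434448, minus strand), had 110, 259, 272, 359 and 315 CPM in WT and 93.5, 286, 185, 175 and 356 CPM in Zeb2KO microglia, CMs, KCs, AMs and SMs. Its AM ratio was -0.77 with TMM factors and -0.90 with cells thinned to 1000 UMIs. Uqcr11 showed the same sides: in AMs it had 638 CPM in WT and 393 in Zeb2KO, and in KCs 446 and 313 CPM.

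**Figure D4:**
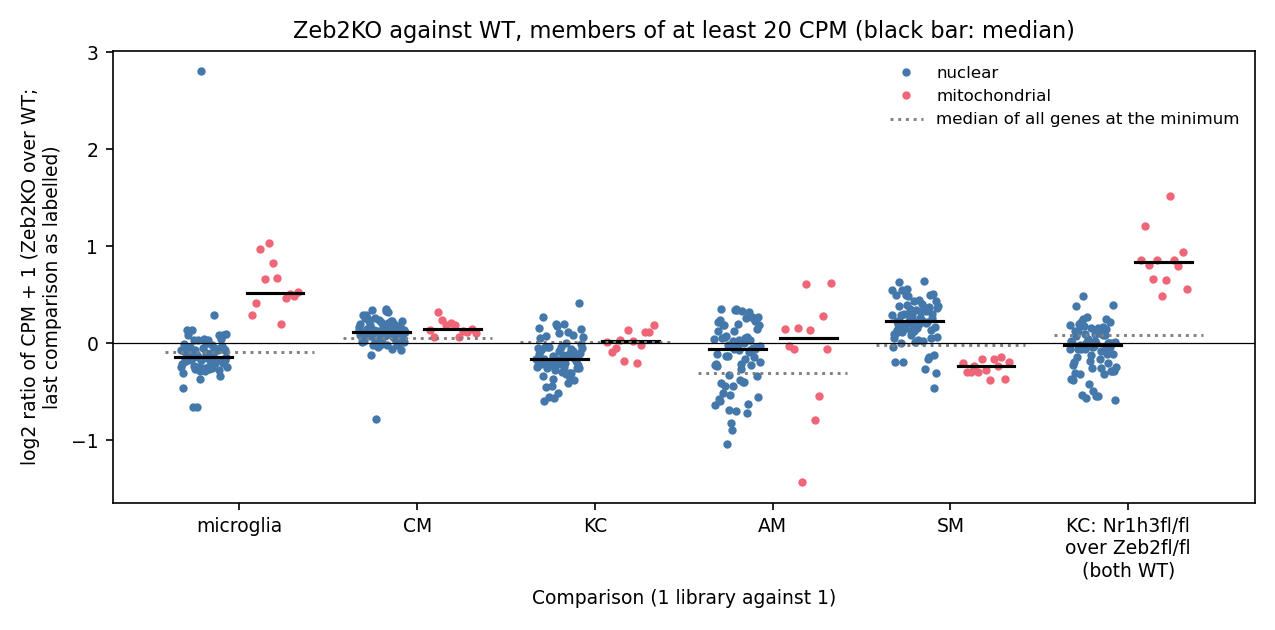
Each point is a member with 20 CPM or more in 1 of its libraries, with the log2 ratio of CPM plus 1 on the y axis, Zeb2KO over WT in the 5 tissues and Nr1h3fl/fl over Zeb2fl/fl for the last pair of WT KC libraries. Black bars are medians of nuclear (blue) and mitochondrial (red) members and dotted lines medians of all genes. The mitochondrial median is 0.52 in microglia and lies below 0 in SMs, and the WT pair shows a larger upward shift than any genotype comparison.

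A difference shared by the tissues was tested in edgeR with the tissue as a block, so that the 5 pairs were the replicates. No gene passed the threshold, neither a member nor any other (0% of 12136), and 12% of all genes, but only 1 nuclear member in each direction and 0 mitochondrial ones, had an unadjusted p under 0.05. These were Cox6b2, lower in Zeb2KO in 5 of 5 pairs (log2 fold change -0.86 ± 0.16, SE; adjusted p = 0.199, edgeR), and Cox6a2, higher in 4 of 5 (2.45 ± 0.88; adjusted p = 0.372, edgeR). In DESeq2 both passed, Cox6b2 with an adjusted p of 0.0103 and Cox6a2 with 0.0425, where 2.08% of all genes were higher and 0.966% lower. The next by p in edgeR were Ndufb11 (0.27 ± 0.12), Ndufs8 (0.23 ± 0.12) and Atp5a1 (-0.17 ± 0.09), with adjusted p of 0.42 to 0.51.

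Cox6b2 was the clearest case by sign. Its WT and Zeb2KO counting intervals in AMs spanned 117 to 125 CPM and 61.9 to 67.1 CPM. Those in CMs spanned 22.5 to 25.4 CPM and 12.4 to 14.8 CPM. In microglia and SMs it rests on 8 to 22 UMIs per library. Cox6a2 differed most in AMs and microglia, from 7 to 584 and from 164 to 1675 UMIs, and in SMs the 2 libraries had 1.22 and 1.14 CPM. Of 75 nuclear members that reached 20 CPM in every tissue, 0 were higher in all 5 tissues and 0 lower in all 5, against 5.62% and 6.81% of 3757 genes. By contrast 42 of the 75 were higher in CMs and SMs and lower in microglia and KCs, against 10.1% of those genes. This pattern was chosen after the values were seen.

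The mitochondrial genes gave other sums. Their log2 ratio of Zeb2KO to WT was 0.65 in microglia (0.638 to 0.657), 0.21 in CMs (0.201 to 0.209), 0.05 in KCs (0.046 to 0.055), 0.23 in AMs (0.230 to 0.238) and -0.25 in SMs (-0.251 to -0.241). The KC value was 0.011 with TMM factors and -0.0081 with thinned cells, and the AM value 0.50 with TMM factors and 0.13 without the filter on mitochondrial percent. RNAs kept in the nucleus (Malat1 and Neat1), used as a sign of RNA quality, had log2 ratios of sums of -0.16, -0.33, 0.36, -0.26 and 0.44 in microglia, CMs, KCs, AMs and SMs, and their part in these values was not tested. In microglia all 12 genes of at least 20 CPM were higher, 7 of them by at least 0.5 (9.78% of all genes), and in SMs all 13 were lower, none by as much. In CMs all 12 were higher by less than 0.5, and in KCs 7 of 12 were higher (4 with TMM factors). In AMs 6 were higher and 6 lower (9 and 3 with TMM factors). By at least 0.5, 2 were higher and 3 lower in AMs (3 and 2 with TMM factors), where by CPM 9.19% and 33.8% of all genes were. In microglia the mitochondrial sum was thus higher and the nuclear sum lower in Zeb2KO cells, and in SMs the reverse. By their sums, AMs showed the microglial pattern with CPM and with thinned cells (-0.090 and 0.31). They did not with TMM factors, which gave nuclear sums of 0.087 in AMs and -0.026 in microglia. Gene by gene, the mitochondrial median was 0.05 in AMs and 0.52 in microglia.

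mt-Co1, the catalytic subunit of complex IV, had 1327 and 2605 CPM in WT and Zeb2KO microglia. It had 5682 and 5502 CPM in WT and Zeb2KO KCs, 7198 and 6914 CPM in AMs and 17951 and 14577 CPM in SMs. mt-Cytb, the only mitochondrial subunit of complex III, had 1429 and 2062 CPM in microglia, 3016 and 4634 CPM in AMs and 6444 and 5651 CPM in SMs. In microglia the Zeb2KO level of both genes was above the WT level, although still below that of every library of the other tissues. The single gene on the other strand, mt-Nd6 of complex I, was at 12.8 CPM or less outside SMs, where it had 110 and 84.9 CPM.

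An example of such shifts without Zeb2 deletion is given by the WT KC libraries. They come from different floxed lines, so unlike the Zeb2KO pairs they are not littermates. Their cells also lay in different clusters: 1 cluster held 43.7% of Nr1h3fl/fl and 2.50% of Zeb2fl/fl KCs, and another 2.07% and 42.9%. The shift to be met between littermates is not known from this pair. From Zeb2fl/fl to Nr1h3fl/fl KCs the nuclear sum differed by 0.02 and the mitochondrial sum by 0.71 on the log2 scale. All 12 mitochondrial genes of at least 20 CPM were higher, 11 by at least 0.5, where 13.2% of all genes were higher and 4.56% lower by as much. mt-Nd3 (1.52) and mt-Nd2 (1.21) passed 1, which 1.32% of all genes did in size. Of the nuclear members 0 were higher and 5 lower by 0.5. The largest mitochondrial difference between Zeb2KO and WT, in microglia, was 0.65, or 0.72 with TMM factors. Against the Nr1h3fl/fl library the mitochondrial sum of Zeb2KO KCs was -0.66 rather than 0.05. A list of dissociation-stress genes was also lower in the Nr1h3fl/fl than in the Zeb2fl/fl KCs (log2 ratio of sums -0.94), higher in Zeb2KO than Zeb2fl/fl KCs (0.86) and lower in Zeb2KO SMs (-0.82) and microglia (-0.35). It was at -0.02 in CMs and -0.11 in AMs, and its part in the mitochondrial values was not tested.

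**Figure D5:**
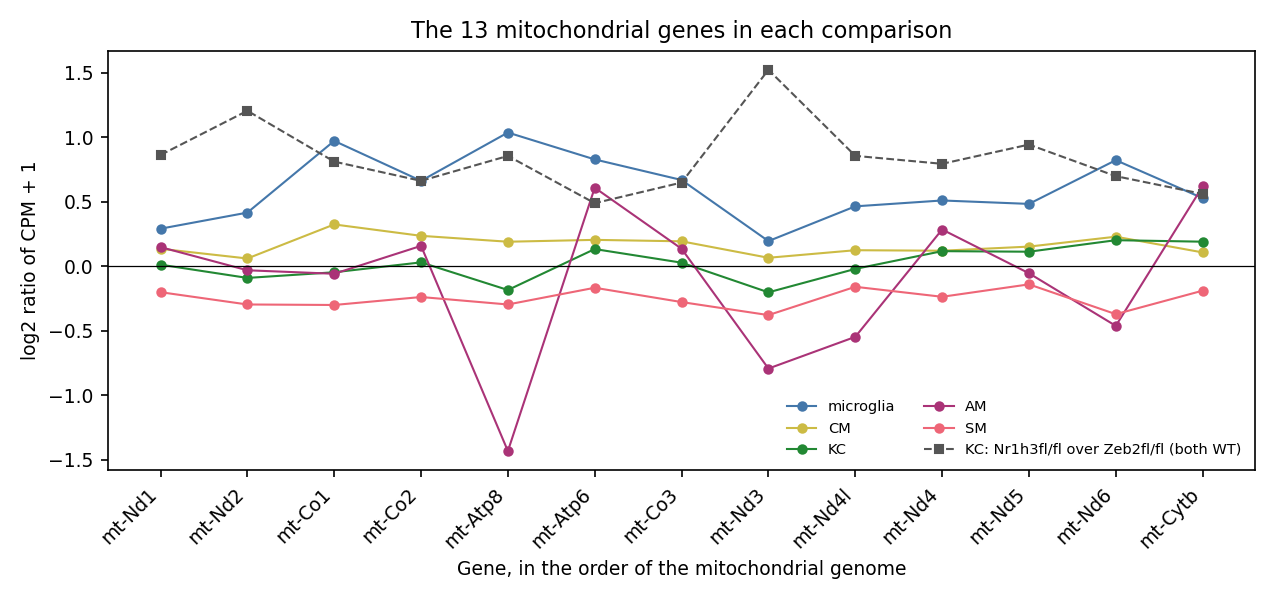
The 13 mitochondrial genes in the order of their genome (x axis) with the log2 ratio of CPM plus 1 (y axis), Zeb2KO over WT for the 5 tissues (circles) and Nr1h3fl/fl over Zeb2fl/fl KCs (squares, dashed). The AM line falls at mt-Atp8 (-1.43), mt-Nd3 (-0.79) and mt-Nd4l (-0.55) and rises at mt-Atp6 (0.61) and mt-Cytb (0.62), while the lines of CMs, KCs and SMs stay within 0.38 of 0.

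In AMs the mitochondrial genes parted from each other. mt-Atp6, a membrane subunit of ATP synthase, had 6417 CPM in WT and 9791 in Zeb2KO AMs, and mt-Atp8, the other mitochondrial subunit of that enzyme, 150 and 55.0 CPM. mt-Nd3 had 633 and 365 CPM and mt-Nd4l 184 and 126 CPM. mt-Atp8 and mt-Atp6 are read from 1 bicistronic RNA and overlap by 43 bases (chrM:7927-7969 within 7766 to 8607, plus strand, GENCODE M21 on GRCm38), shown in capitals with 20 bases on each side (chrM:7907-7989) because reads there could count for either gene.
mt-Atp8 and mt-Atp6 overlap: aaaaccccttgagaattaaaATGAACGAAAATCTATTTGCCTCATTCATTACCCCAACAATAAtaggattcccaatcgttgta
As a percentage of mt-Atp6 UMIs, mt-Atp8 was at 0.600 and 0.725 in WT and Zeb2KO microglia, 1.10 and 1.09 in CMs, 0.545 and 0.435 in KCs, 2.34 and 0.562 in AMs and 6.27 and 5.73 in SMs, and at 0.711 in Nr1h3fl/fl KCs. For mt-Nd4l and mt-Nd4, which also share a bicistronic RNA, the percentages were 3.46 and 3.38, 4.80 and 4.82, 2.89 and 2.62, 8.59 and 4.81, and 14.0 and 14.8 in the same order. WT AMs and both SM libraries were therefore the high ones for both ratios. Because UMIs are counted at 3′ ends, the upstream gene of such an RNA is read only in part, and these ratios do not give the amounts of protein.

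The shares were then followed in cells that lay inside and outside clusters held mainly by Zeb2KO cells, with the member genes left out of the clustering. In Zeb2KO microglia the mitochondrial share was 1.70% inside and 1.67% outside these clusters, against 1.08% in WT. In Zeb2KO AMs it was 4.11% inside and 4.13% outside, against 3.50% in WT, and the nuclear share was 2.39% inside and 2.85% outside, against 2.75% in WT. The 80 WT AMs of the same clusters had 3.13% nuclear and 3.24% mitochondrial UMIs. In Zeb2KO KCs the nuclear share was 2.10% inside and 2.62% outside, against 2.52% in all WT KCs and 2.08% in the few WT KCs of the same clusters. The KC mitochondrial share was 2.90% inside and 3.36% outside, against 2.93% in all WT KCs and 2.13% in the 54 WT KCs of the same clusters. Pooled over cells outside these clusters, the nuclear share of Zeb2KO AMs and KCs was thus not below that of WT, as a share of all UMIs. With TMM factors the AM sum of the whole library turned to 0.087. The mix of clusters differed too. Clusters called dividing by Top2a and Mki67, all outside, held 8.92% of all Zeb2KO and 5.34% of all WT KCs. For AMs these shares were 4.77% and 3.26%. Among cells outside the imbalance was larger, as 2934 of 3956 Zeb2KO but 54 of 4048 WT KCs lay inside. In AMs 5665 of 6270 Zeb2KO and 80 of 6988 WT cells did. An AM cluster led by the DNA replication genes Hells, Ung and Mcm2, not called dividing, held 297 WT and 93 Zeb2KO cells. The higher mitochondrial share of microglia and AMs was found both inside and outside. Of 3243 Zeb2KO microglia, however, 3062 lay inside, and 165 of those outside were of 1 cluster. In that cluster the share was 1.72% in Zeb2KO cells and 1.28% in its 54 WT cells. In Zeb2KO CMs the nuclear share was 2.18% inside and 2.47% outside, against 2.18% in WT, and the mitochondrial share 2.43% and 3.26%, against 2.67%. The higher CM shares therefore lay outside these clusters. Inside them the mitochondrial share was below that of all WT CMs, but not below the 2.42% of the 34 WT CMs of the same clusters. The nuclear share of those WT CMs was 2.14%. In Zeb2KO SMs the nuclear share was 1.75% and 2.17%, against 1.58% in WT, and the mitochondrial share 6.81% and 7.45%, against 8.22%.

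In clusters with at least 50 cells of each genotype, the mitochondrial share was higher in Zeb2KO cells in 18 of 22. These were 1 of 3 SM clusters, 3 of 3 from AMs, 6 of 7 from KCs, 7 of 8 from CMs and 1 of 1 from microglia. The nuclear share was higher in 15 of 22, which in the same order of tissues were 3 of 3, 3 of 3, 1 of 7, 8 of 8 and 0 of 1. In KCs the nuclear share was therefore lower in 6 of the 7 shared clusters, all of them outside the clusters held mainly by Zeb2KO cells, although the pooled share outside was 2.62% against 2.52%. The largest of these in WT (1973 WT and 118 Zeb2KO cells) had 2.36% in WT and 2.27% in Zeb2KO. A dividing one (72 and 259 cells) had 3.05% and 2.75%. The pooled share thus also depends on the mix of clusters, whose part was not tested. In AMs the nuclear share was higher in all 3 shared clusters although lower in the whole library by CPM (-0.18, or 0.087 with TMM factors). The largest of the 3 was nearly level, at 3.19% in its 75 WT cells and 3.20% in Zeb2KO. The others were the dividing cluster (2.83% and 2.89%) and the one led by DNA replication genes (2.59% and 3.33%). The SM cluster with the largest mitochondrial difference (8.46% in WT, 7.05% in Zeb2KO) was led by genes of B cells such as Fcer2a and Jchain. Clusters of 1 library are not replicates, and these counts have no test.

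Other genes of the pathway were counted by the same rule, and their likeness to the nuclear members was not tested. Of 48 listed assembly factors and chaperones, 21 reached 20 CPM in AMs, of which 2 were higher and 4 lower by at least 0.5, where 9.19% and 33.8% of all genes were. Cox17, the copper chaperone of complex IV, went from 427 to 176 CPM (log2 ratio -1.27) and Cox16 from 27.4 to 13.1 CPM in AMs. In SMs 3 of 21 were higher and 0 lower, in KCs 0 of 24 and 1, in CMs 0 of 24 and 0, and in microglia 1 of 27 and 1, beside the shares of all genes given above (for SMs 7.45% higher and 5.05% lower). Of 77 mitochondrial ribosomal protein genes 62 reached 20 CPM in SMs, 6 of them higher and 0 lower by 0.5, close to the 7.45% of all genes that were higher, and in the other tissues 0 were higher and at most 2 lower. Mrps6 went from 73.6 to 29.3 CPM in AMs.

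Of 15 listed regulators of the pathway, 10 reached 20 CPM in AMs. By CPM, 5 of these were lower and 0 higher by at least 0.5 in Zeb2KO, where 33.8% of all genes were as much lower. With TMM factors 941 of 5811 genes were, and the regulators were not counted anew. Ppargc1b, a coactivator of mitochondrial genes, went from 32.6 to 8.99 CPM (-1.75) and Prkaa1, the catalytic subunit of AMP kinase, from 35.9 to 17.0 CPM (-1.04). In SMs 3 of 11 were lower (5.05% of all genes), in microglia 1 of 9 was higher (9.78% of all genes), and in CMs and KCs none differed by 0.5. Among genes that express mitochondrial DNA, 2 of 7 were lower in AMs, with Lrpprc, which stabilises mitochondrial mRNAs, at 22.5 and 8.94 CPM (-1.24). Of the electron and metabolite carriers 4 of 15 were lower in AMs, Ucp2 going from 1279 to 636 CPM (-1.01).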

How the data were processed

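Single-cell RNA-seq libraries of microglia, CMs, KCs, AMs and SMs were analysed as the authors deposited them: raw UMI counts per gene and cell barcode. According to the study's methods and the submitters' processing notes, the authors ran Cell Ranger and mapped reads with STAR to mm10. Cells over 3 median absolute deviations from their library's median in log UMIs, log genes or, upwards, mitochondrial percent were removed (4.66% to 9.22% of barcodes), and clusters that met a marker rule for other cell types were left out (0% to 22.1% of cells). An SM and an AM cluster with lymphocyte genes among the leading ones did not meet it and were kept, and leaving them out was an alternative added after the data were seen. Cells were clustered in scanpy 1.11.5 and leidenalg 0.10.2 on 2000 variable genes without the members (30 components, 15 neighbours, resolution 0.8). No doublet caller was used, and removal of the 5% of cells with most UMIs was an alternative. A cluster was held mainly by Zeb2KO cells when its share of Zeb2KO cells was at least 9 times that of WT cells.

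UMIs of kept cells were summed per library (8195311 to 42962191, from totals of 11133411 to 47400786 UMIs) and scaled to CPM. At these depths counting intervals are narrow, and the absence of replicates within a tissue limits precision. Groups came from the labels. Tests used edgeR 4.0.16 (R 4.3.3, TMM, filterByExpr, quasi-likelihood F test) with tissue and genotype as terms over 10 libraries, on all genes, with Benjamini-Hochberg adjustment and a threshold of 0.05. Each tissue and genotype had 1 library, so the spread behind the p-values is the tissue by genotype residual. In the genotype test it reflects how far the Zeb2KO difference varied among tissues. In the tissue tests it reflects how far the WT and Zeb2KO libraries of a tissue departed from the shared genotype difference. Neither holds a spread between mice of the same tissue and genotype. DESeq2 1.42.0 was an alternative, as were other scalings, filters, cell sets, length correction, thinning to 1000 UMIs and leaving out each pair or library.

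Named were all mitochondrial genes, the 3 lowest and 3 highest nuclear ratios per tissue, members past a log2 ratio of 1 at 20 CPM, restricted isoforms and Atp5g genes, the 6 widest nuclear WT ranges, the 5 smallest p in the blocked fit, and other pathway genes past 1 (at most 3 per list and tissue). The members and lists were chosen with earlier results of these data known. Proteins were not used here.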

Additional observations from a re-analysis of the deposited data

Results flagged for a closer look

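Effects of Zeb2KO against WT went opposite ways in different tissues. By the study the CRE line was Fcgr1-cre for microglia, CMs and SMs, and another line for KCs and for AMs. The difference between tissues was not tested because each tissue had 1 pair of libraries. For the summed nuclear members the log2 ratio of Zeb2KO to WT was -0.10 in microglia, -0.17 in KCs and -0.18 in AMs, against 0.14 in CMs and 0.21 in SMs. For the summed mitochondrial members it was -0.25 in SMs, against 0.050 in KCs, 0.21 in CMs, 0.23 in AMs and 0.65 in microglia. Between the WT KC libraries the nuclear sums differed by 0.02 and the mitochondrial ones by 0.71. The KC mitochondrial value was -0.0081 with cells thinned to 1000 UMIs, and with TMM factors the nuclear value turned to 0.087 in AMs and shrank to -0.026 in microglia.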

How the results depend on the processing

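Sums are given as log2 ratios of Zeb2KO to WT. With TMM factors the nuclear sums were 0.23 (SMs), 0.087 (AMs, a reversal), -0.21 (KCs), 0.11 (CMs) and -0.026 (microglia), and the mitochondrial ones, in that order, -0.23, 0.50, 0.011, 0.17 and 0.72. With cells thinned to 1000 UMIs the nuclear sums were 0.23 (SMs), -0.090 (AMs), -0.20 (KCs) and 0.12 (CMs), and the mitochondrial ones -0.17, 0.31, -0.0081 (KCs, a reversal), 0.23 and 0.66 (microglia). Without the filter on mitochondrial percent they were 0.14, -0.16 and -0.16 (nuclear, CMs, KCs, AMs) and 0.20, 0.038, 0.13 and -0.30 (mitochondrial, CMs, KCs, AMs, SMs). With all filtered cells they were 0.14, -0.16 and 0.18 (nuclear, CMs, KCs, SMs) and 0.20, 0.068 and -0.23 (mitochondrial, same tissues). Scaled to UMIs outside the mitochondrial genome they were 0.15, -0.17 and 0.19 (nuclear, CMs, AMs, SMs) and 0.21, 0.24 and -0.27 (mitochondrial, same tissues). Without the 5% of cells with most UMIs they were -0.19, -0.14 and 0.24 (nuclear, KCs, AMs, SMs) and 0.21, 0.034, 0.26 and -0.22 (mitochondrial, CMs, KCs, AMs, SMs). Without dividing clusters the nuclear sums were -0.20 in KCs and -0.19 in AMs. With the Nr1h3fl/fl library as WT, KCs gave -0.19 and -0.66 (a reversal). Scaled to UMIs outside S100a8 and S100a9, a choice made after the data were seen, AMs gave -0.14 and 0.27. Without the clusters led by lymphocyte genes (118 WT and 32 Zeb2KO AMs, 201 WT and 132 Zeb2KO SMs), also chosen after the data were seen, AMs gave -0.18 and 0.23 and SMs 0.21 and -0.24. Nuclear members changed over the tissues numbered 0 in edgeR and 2 in DESeq2. The cause of the reversals in KCs and AMs was not tested. Counting error is small at these depths, and 1 library per tissue and genotype is the limit.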

Other observations

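Genes of neighbouring pathways were compared by the same rule, Zeb2KO against WT at 20 CPM or more. In AMs, 6 of 16 genes of the citric acid cycle and 7 of 15 of fatty acid oxidation were lower by a log2 ratio of at least 0.5, with 0 and 2 higher. Of the glycolysis genes 3 of 15 were higher and 5 lower in AMs: Slc2a1, the glucose transporter GLUT1, went from 3.24 to 30.5 CPM (log2 ratio 2.89) and Hk3, a hexokinase, from 8.0 to 26.2 CPM (1.60), while Pfkp, a phosphofructokinase, went from 99.95 to 43.1 CPM (-1.19). In the same library 33.8% of all genes were lower and 9.19% higher by 0.5, so by CPM the background was mostly lower. With TMM factors 941 of 5811 genes were lower and 924 higher by as much, and the counts of these pathways were not repeated with that scaling.

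In microglia Idh2, the mitochondrial NADP-dependent isocitrate dehydrogenase, went from 161 to 56.9 CPM (-1.49) and Hk3 from 39.3 to 17.0 CPM (-1.17), the direction opposite to that of Hk3 in AMs. In KCs Pgk1, a glycolytic kinase, went from 11.4 to 31.1 CPM (1.37) and Pdk1, a kinase that inhibits pyruvate dehydrogenase, from 9.41 to 21.8 CPM (1.13). In CMs Aldoc, an aldolase, went from 11.3 to 26.9 CPM (1.18). Neat1, a long noncoding RNA kept in the nucleus, went from 141 to 319 CPM in microglia, while its sum with the more abundant Malat1, kept there too, had a log2 ratio of -0.16. No test was made within a tissue. Cytosolic ribosomal protein genes, another set of short and abundant transcripts, had log2 ratios of sums of 0.26 in microglia, 0.22 in KCs and -0.15 in SMs, opposite in sign to the nuclear members there. In CMs (0.08) and AMs (-0.04) the sign was the same as theirs.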
